A study of Mus musculus with 6 samples.

Results

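Cultured mouse Müller glia given 3 small RNAs, a let-7 antagomiR with mimics of miR-25 and miR-124, were set against Müller glia given the miR-124 mimic alone. The comparison consists of 2 of the 6 single-cell libraries of the study, chosen by their treatment labels. Together they held 7682 of the 23258 cells that had at least 500 detected genes and at most 10% of UMIs from mitochondrial genes, 4084 in the library labelled with all 3 RNAs and 3598 in the library labelled with the miR-124 mimic. Retinal cells were dissociated with papain, grown in neurobasal medium with fetal bovine serum, N2, L-glutamine and EGF, and transfected with Lipofectamine, each RNA at 500 nM, per the labels. The labels used here give no strain, genotype or age. The miR-124 mimic is common to both sides, so the question was what the let-7 antagomiR and the miR-25 mimic add to it. There was 1 library a side, so no difference below has a replicate check and no test of the treatments was made. Intervals are exact 95% intervals of the counts and cover counting error only.

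The word "labelled" is kept throughout, because genes with miRNA sites went against part of the labels (given below, before the expression results). The library of all 3 RNAs is called triple-labelled and that of the miR-124 mimic miR-124-labelled. The triple-labelled matrix held 22705495 UMIs (unique RNA molecules counted) and the miR-124-labelled matrix 15059804, with a median of 4579 and 3519.5 UMIs per kept cell. The 2 libraries shared 17 cell barcodes, and the 15 pairs of libraries in the series shared 9 to 30.

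Müller glia span the retina, recycle glutamate, buffer ions and water, and support photoreceptor pigment recycling. In fish they re-enter the cell cycle after injury and give rise to neurons, while in mice they mostly react by gliosis without making neurons. MiRNAs lower the level and translation of messages whose 3′ UTRs pair with the miRNA seed, so a mimic is used to lower its targets and an antagomiR to release them. The let-7 family rises as tissues mature and restrains progenitor genes such as Lin28b and Hmga2. miR-25 belongs to a cluster that is linked to progenitor growth, and miR-124 is abundant in neurons, where it restrains glial and non-neuronal genes.

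The RNAs that the comparison should differ by are shown here with the seed, bases 2 to 8, in capitals (mature sequences from RefSeq, GRCm38.p6, 5′ to 3′). The let-7 members differ outside the seed, and the sites in messages that pair with this seed are what an antagomiR would free. mmu-miR-92a-3p is shown because it has the seed of mmu-miR-25-3p, so sites of one cannot be told from sites of the other.
mmu-let-7a-5p: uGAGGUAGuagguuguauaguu
mmu-let-7b-5p: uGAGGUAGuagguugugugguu
mmu-let-7i-5p: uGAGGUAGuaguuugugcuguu
mmu-miR-25-3p: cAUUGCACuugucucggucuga
mmu-miR-92a-3p: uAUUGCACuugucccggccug
The genes lie on chromosome 13 for let-7a, 15 for let-7b, 10 for let-7i and 5 for miR-25. The let-7 sites searched in 3′ UTRs were CTACCTC and TACCTCA, and 14.9% of 21045 annotated UTRs held at least 1. Those of miR-25 were GTGCAAT and TGCAATA (12.7% of UTRs), and those of miR-124 were GTGCCTT and TGCCTTA (19.6%). The arms of the mimics are not given in the labels, and the 3p arms were assumed. For miR-9-5p, an RNA that none of the treatments names, they were ACCAAAG and CCAAAGA (20.2%).

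The next 6 sites show where genes described below carry an 8-base match to these seeds (capitals), in 23-base stretches of their 3′ UTRs in GRCm38. A match is a description of the letters and not a measured site of action.
Hmga2, let-7 site, chr10:120364223-120364245, minus strand: ccgacattcaatttCTACCTCAg
Nrp2, let-7 site, chr1:62798047-62798069, plus strand: taccttgaggtgtcCTACCTCAg
Ndrg2, let-7 site, chr14:51905366-51905388, minus strand: cagggtgggaagagCTACCTCAg
Dkk3, let-7 site, chr7:112117733-112117755, minus strand: ctgtgtttcagctcCTACCTCAc
Dkk3, miR-25 site, chr7:112118173-112118195, minus strand: agtcactggtagatGTGCAATAg
Bcl2l11, miR-25 site, chr2:128162435-128162457, plus strand: ttgccactgtacctGTGCAATAc
Nrp2, a semaphorin and VEGF co-receptor, had 18.9 CPM (a gene's UMIs scaled to the same total in each library) in Müller-like cells of the triple-labelled library, against 43.2 in the miR-124-labelled library. Ndrg2, a glial stress-response gene, carries the same 8 letters and had 120 against 51.1 CPM. Genes with a let-7 match were thus found on both sides.

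Genes with sites gave the check of the labels. By the labels, the triple-labelled library over the miR-124-labelled one should have let-7 site genes higher and miR-25 site genes lower. In Müller-like cells the 1160 genes with a let-7 site had a median log2 ratio of -0.052, against 0.010 for the 5416 genes without, a difference of -0.062 (median interval -0.078 to -0.045), which is the opposite direction. With 0, 1, 2 and 3 or more let-7 sites the medians were 0.010, -0.052, -0.064 and -0.012, so they did not fall steadily with site number. The difference stayed below 0 in each class measured: -0.110 in the cluster led by Rlbp1, -0.065 in that led by Lcn2, -0.047 in astrocyte-like, -0.034 in pericyte-like, -0.056 in microglia-like and -0.008 in fibroblast-like cells. For miR-25 sites the difference was -0.014 (-0.033 to 0.006) and turned to 0.017 once trends on UTR length, UTR GC and level were removed. For miR-124 sites it was -0.012 (-0.028 to 0.002), and for miR-9 sites 0.010. With the trends removed the miR-124 difference was -0.024 (-0.037 to -0.006), and -0.044 for 8-base sites.

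Against the control library, let-7 site genes stood higher by 0.055 in the triple-labelled and by 0.129 in the miR-124-labelled library, although the label of the second names no let-7 inhibitor. Removing the trends left -0.014 and 0.065. The libraries labelled let-7 antagomiR and double combination had 0.058 and 0.066 on that scale. miR-25 site genes were higher than other genes by 0.080 in the triple-labelled and 0.081 in the miR-124-labelled library against control, where the library labelled miR-25 mimic had -0.118 and the double combination -0.185. Removing the trends left 0.030 and 0.015 in the first pair, both with intervals that reach 0, and -0.071 and -0.106 in the second. The 8-base miR-124 sites gave -0.179 and -0.158 in the triple-labelled and miR-124-labelled libraries after the trends were removed, against -0.007 in each of the double combination and miR-25 libraries and 0.010 with let-7 antagomiR. Both libraries were therefore low in 8-base miR-124 site genes against control once the trends were removed. Before that, the 8-base values were -0.072 in the triple-labelled and -0.067 in the miR-124-labelled library. The double combination had -0.102, the miR-25 library -0.058 and the let-7 antagomiR library -0.026. Without the removal of trends, these site genes thus did not set the 2 libraries apart. With the trends removed, genes with any miR-124 site had -0.076 and -0.061 in these 2 libraries against control. Those with any miR-9 site, which no label names, had -0.040 (-0.062 to -0.021) and -0.053 (-0.07 to -0.033). For 8-base miR-9 sites the values were -0.044 and -0.077. Between the triple-labelled and miR-124-labelled libraries the miR-124 site difference was small, -0.012, or -0.024 with the trends removed, where its interval lay below 0. They differed in let-7 site genes against the direction of their labels, and in miR-25 site genes by an amount whose interval includes 0. Whether a label, a transfection or another difference between the cultures lies behind this was not tested.

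**Figure D1:**
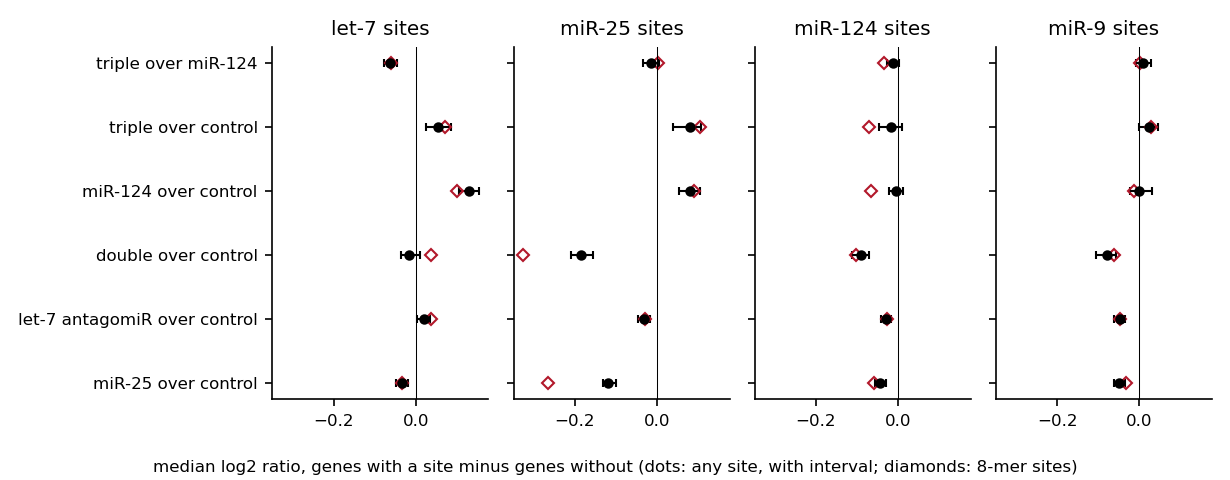
Site genes in Müller-like cells. Each panel is 1 miRNA and plots, for 6 comparisons of libraries, the median log2 ratio of genes with a 3′ UTR site minus that of genes without. Dots are genes with any site and their lines the 95% interval from order statistics of the medians; diamonds are 8-base sites. The triple over miR-124 comparison has let-7 site genes at -0.062, below 0, and miR-25 site genes at -0.014, while miR-25 site genes stand at -0.118 and -0.185 in the libraries labelled miR-25 mimic and double combination against control.

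Cells of both libraries were clustered with those of the other 4 and named by marker genes. Müller-like cells made up 53.3% of the triple-labelled library (2175 cells, interval 51.7% to 54.8%), against 34.0% of the miR-124-labelled library (1225 cells, 32.5% to 35.6%) and 28.1% of the control library. Fibroblast- or mesenchymal-like cells made up 22.2% (20.9% to 23.5%) against 34.4% (32.9% to 36.0%), with 48.1% in the control. Neuron- or progenitor-like cells, led by Pcp4, Chgb, Neurod4 and Neurod1, were 31 cells (0.759%, 0.516% to 1.08%) against 160 cells (4.45%, 3.80% to 5.17%), with 4 cells in the control. This class was smaller in the triple-labelled library under every clustering and filter run, at 0.759% to 1.30% against 1.54% to 5.17%.

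A further cluster, led by Bglap2, was left unnamed, although Hes6 and Dll1, genes of neuronal progenitors, were among its 10 leading genes. It held 132 cells (3.23%) against 84 (2.33%). Pericyte- or smooth muscle-like cells made up 6.90% against 9.59%, astrocyte-like cells 7.44% against 8.75%, microglia- or macrophage-like cells 2.45% against 2.95%, and pigment-like cells 0.637% against 0.778%. No cluster carried the name endothelial. Clustering used all genes, including those that differ between the libraries, so these shares describe the clustering, and culture and treatment cannot be told apart in them. A stricter cell filter (1000 or more genes, no more than 5% mitochondrial UMIs) left 372 of the 2175 and 99 of the 1225 Müller-like cells, whose median mitochondrial share was 6.46% against 7.51%, and the class then made up 18.3% against 4.93%.

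**Figure D2:**
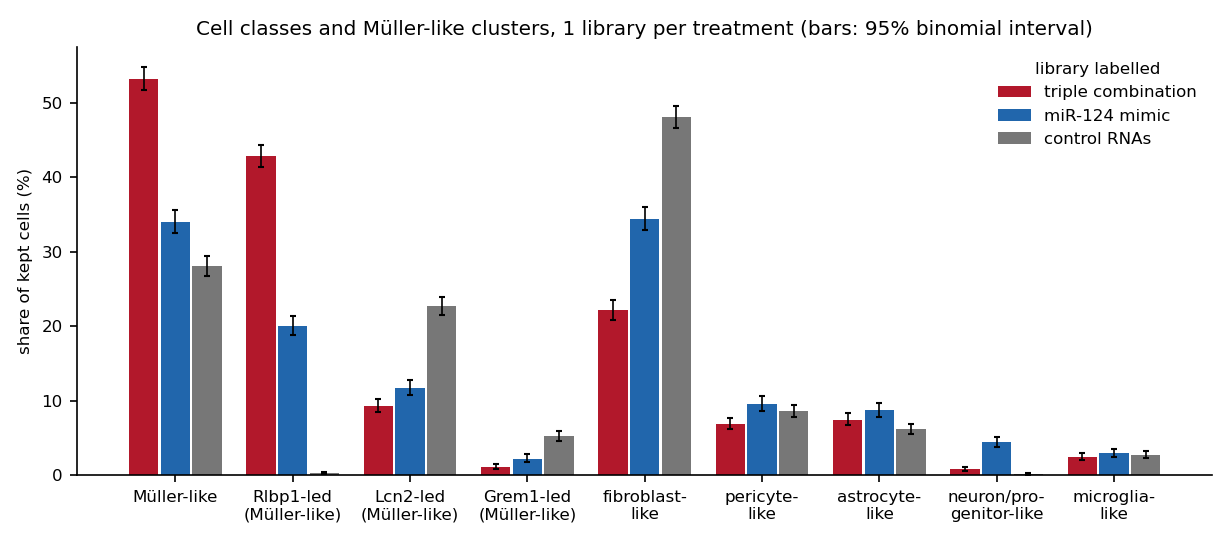
Share of kept cells in each named class, in percent, as bars for the triple-labelled, miR-124-labelled and control libraries, with exact 95% binomial intervals as lines. Müller-like cells stand at 53.3%, 34.0% and 28.1%, and neuron- or progenitor-like cells at 0.759%, 4.45% and 0.0885%.

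The Müller-like class was not the same mixture in both libraries. The cluster led by Rlbp1, in which 17 of 20 Müller glia markers were raised, held 80.5% of the class in the triple-labelled library (1751 cells) and 59.0% in the miR-124-labelled library (723 cells). The other 4 libraries had 3 to 30 cells in it. The cluster led by Lcn2, an acute-phase gene of reactive glia (8 of 20 markers raised), held 17.4% against 34.4%. The cluster led by Grem1, a secreted BMP antagonist (4 of 20 markers raised), held 2.07% against 6.53%. Values are therefore given over the whole class and, where it matters, within the Rlbp1-led and Lcn2-led clusters. Over the class, the summed levels of other cell types' markers were 38.7 against 55.9 CPM for fibroblasts, 1788 against 1092 for astrocytes (of which Gfap was 1124 and 464) and 1194 against 2044 for pericytes. They were 20.01 against 25.99 CPM for microglia and 816 against 851 for neurons and progenitors. Of the endothelial markers, which summed to 1075 against 801 CPM, Tie1, Cdh5 and Cldn5 had no UMI in either library. The part of these markers in the results below was not tested.

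UMIs were summed over Müller-like cells, 8744728 in the triple-labelled and 3540151 in the miR-124-labelled library, so that 3 UMIs correspond to 0.343 and 0.847 CPM. Log2 ratios are of CPM + 5, triple-labelled over miR-124-labelled, for the 6680 genes that reached 20 CPM in either library. In all, 38 of them (0.569%) were 2-fold or more higher and 23 (0.344%) 2-fold or more lower. At 1.5-fold there were 221 higher (3.31%) and 137 lower (2.05%), and the median of all genes was 0.00. Within the Rlbp1-led cluster alone 47 genes (0.700%) were 2-fold higher and 27 (0.402%) lower, and 4.35% and 2.11% passed 1.5-fold. In the Lcn2-led cluster 38 (0.578%) and 28 (0.426%) passed 2-fold, and 4.43% and 3.27% passed 1.5-fold. All 38 higher genes of the class were also past 1.5-fold within the Rlbp1-led cluster, as were 26 of the 31 that could be measured in the Lcn2-led cluster. Many were not particular to Müller-like cells: 16 of the 20 that could be measured in fibroblast-like cells passed 1.5-fold there too, where 1.57% of all genes did, and 13 of 16 of the lower genes did (0.828% of all). Among the 23 lower genes, 11 were ribosomal protein, ribosomal pseudogene or unnamed symbols, and none of the 38 higher ones were.

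The genes fixed whatever their values included the main glial markers. Gfap, the intermediate filament of astrocytes and reactive Müller glia, had 1124 CPM (1102 to 1146) in the triple-labelled library against 464 CPM (441 to 487) in the miR-124-labelled library, a log2 ratio of 1.27 and a ratio of CPM between 2.30 and 2.56. The other 4 libraries lay between 31.99 and 66.9 CPM. Both libraries thus stood far above the rest, and the triple-labelled one was the higher. Glul, the glutamine synthetase with which Müller glia clear glutamate, had 805 CPM against 323 CPM (log2 1.30, ratio 2.34 to 2.66), with 98.4 to 124.2 CPM in the other 4.

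The 10 genes that lead the Rlbp1-led cluster include Gfap and Rlbp1, so their class values also depend on how many cells that cluster holds. Within that cluster Gfap had 1427 against 739 CPM (log2 0.95) and Glul 1002 against 469 CPM (1.09). In the Lcn2-led cluster they had 171 against 104 CPM (0.69) and 190 against 139 CPM (0.44). Rlbp1, the retinaldehyde carrier that gives the cluster its name, differed less, at 581 against 417 CPM over the class (0.48) and by 0.16 within the cluster. The higher Gfap and Glul were therefore seen in both clusters, with a smaller gap than over the class. Microglia-like cells, which should lack Gfap, had 159 against 25.5 CPM of it. The Gfap level of the Lcn2-led cluster in the triple-labelled library was thus near that of microglia-like cells. Whether free RNA has a part in the Lcn2-led values was not tested.

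In cells thinned to 2000 UMIs, so that depth is equal, 57.8% of 2125 Müller-like cells had a Gfap UMI in the triple-labelled library, against 34.9% of 1069 cells in the miR-124-labelled library. For Glul the shares were 65.8% against 38.9%. Microglia-like cells, which should lack Gfap, had it in 6.19% against 3.0% of cells, and Glul in 14.4% against 16.0%. Thinning left out 50 and 156 shallower Müller-like cells, and unthinned shares were 69.2% against 40.2% for Gfap and 79.4% against 47.7% for Glul. Both shares were well above the level in microglia-like cells.

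The wider Müller glia list, which also named the clusters, leaned the same way. Of its 20 genes, 5 passed 1.5-fold upward and 1 downward, 15 lay above 0, and the median log2 ratio was 0.28, against 0.00 for all genes. The 5 were Glul, Ndrg2, Clu, Car14 and Abca8a. Clu, a secreted chaperone, had 901 against 447 CPM, and Car14, a membrane carbonic anhydrase that buffers retinal pH, 145 against 85.3 CPM (0.73). Sox9 and Sox2, transcription factors that maintain glial identity, had 253 against 248 CPM and 228 against 225 CPM, within 0.03 of 0. The median was 0.15 in the Rlbp1-led and 0.02 in the Lcn2-led cluster, both smaller than over the class. Within transport genes, Slc6a11, a GABA transporter, had 61.8 against 28.5 CPM (0.99) and was 0.77 higher in each of the 2 clusters, while the 11 measured glutamate and GABA genes had a median of 0.24 over the class, with 2 higher and 0 lower.

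**Figure D3:**
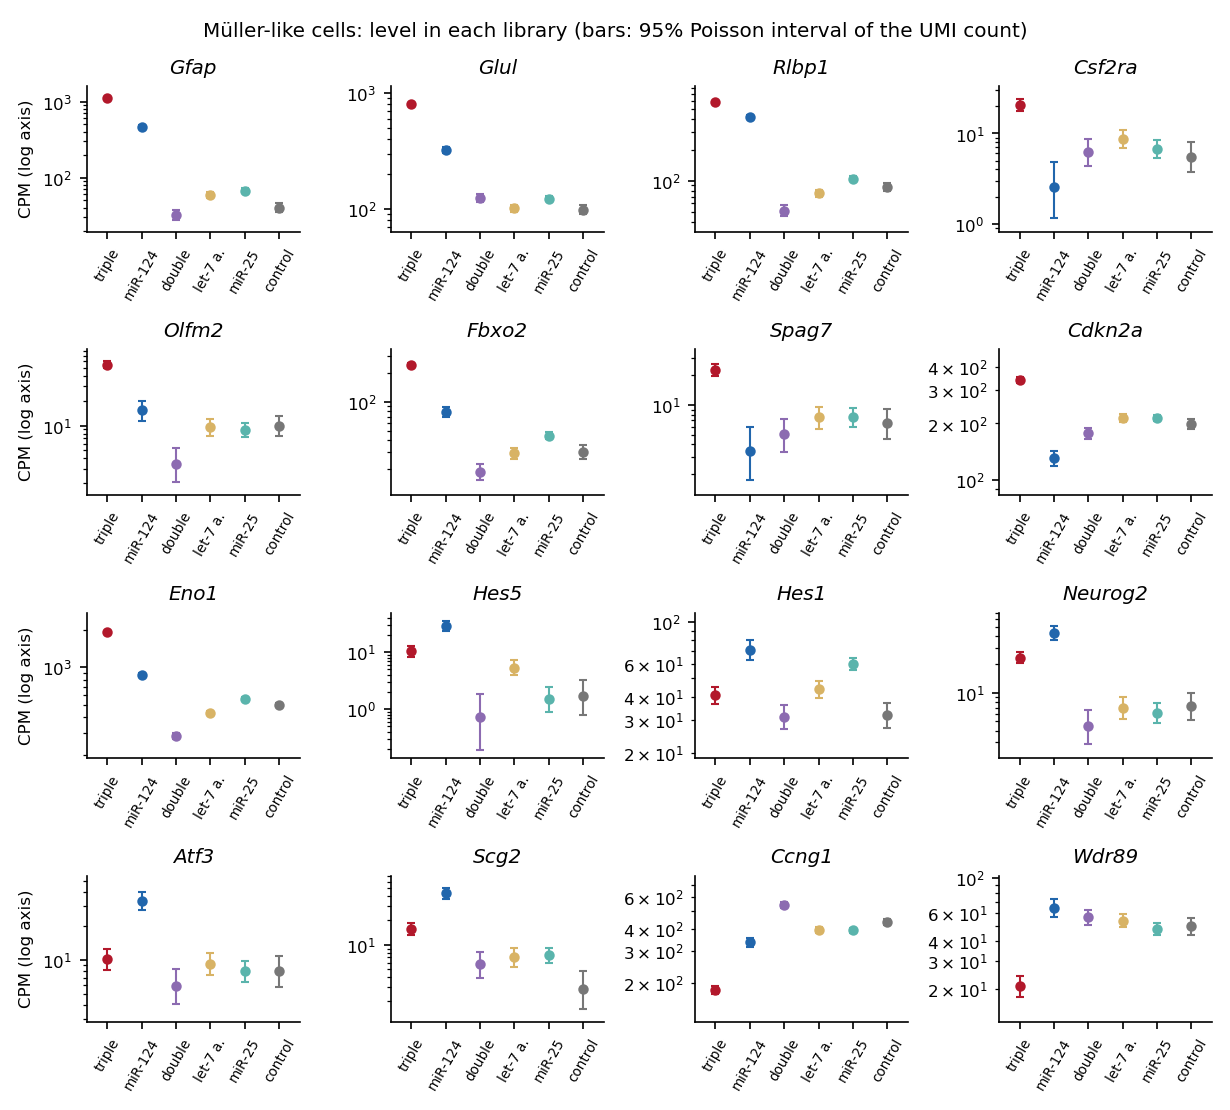
Level of 16 genes in Müller-like cells of each library, in CPM on a log axis, with exact 95% counting intervals. The triple-labelled library comes first and the miR-124-labelled second, before the other 4. Gfap stands at 1124 and 464 CPM with 31.99 to 66.9 elsewhere, and Hes5 at 10.3 and 29.1 CPM with 0.719 to 5.37 elsewhere.

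By the size of the ratio, Csf2ra, Spag7, Mpst, Olfm2 and Fbxo2 were the highest of the named genes. Fbxo2, a ubiquitin ligase subunit that binds glycoproteins, had 241 CPM (231 to 252) against 78.2 CPM (69.3 to 88.0), with 18.5 to 44.2 in the other 4 libraries, and a log2 ratio of 1.56. Olfm2, a secreted olfactomedin, had 55.0 against 15.3 CPM (1.57), with 62.4 against 20.5 CPM in the Rlbp1-led and 35.0 against 9.18 CPM in the Lcn2-led cluster. Csf2ra, the alpha chain of the GM-CSF receptor, had 20.7 against 2.54 CPM (181 against 9 UMIs, log2 1.77, ratio 4.19 to 18.1). It passed the level filter through the triple-labelled library alone, so it had to be higher there. The same holds of Olfm2, of Spag7 (22.8 against 3.39 CPM) and of Cacng7, a calcium channel subunit (20.4 against 3.95 CPM). It also holds of each gene below with under 20 CPM in the miR-124-labelled library.

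Fxyd1, a regulator of the sodium pump, had 342 against 132 CPM (1.34), Clmn 135 against 51.4 CPM (1.31) and Ndrg2 a log2 ratio of 1.15. Cdkn2a, which encodes the cell cycle inhibitors p16 and p19Arf, had 342 against 131 CPM (1.36, ratio 2.38 to 2.90), where the other 4 libraries had 177 to 214. The miR-124-labelled library was therefore the low one and the triple-labelled the high one for this gene. Mpst, a mitochondrial sulfurtransferase, had 81.3 against 22.0 CPM, Pigt 45.2 against 12.1, Dtx3 48.5 against 15.3, Cmtm7 53.6 against 17.5, Cox4i2 30.8 against 9.32 and the histone gene Hist2h4 26.2 against 7.63. Within the Rlbp1-led cluster Hist2h4 had 32.8 against 8.79 CPM. In the Lcn2-led one it had 7 against 8 UMIs (-0.38, ratio 0.183 to 1.87). For Mpst, Pigt, Dtx3 and Spag7 the triple-labelled library was above all 5 others. The miR-124-labelled one lay within the range of the other 4 for Mpst (20.8 to 28.9 CPM) and Dtx3 (11.9 to 21.1) and below it for Pigt (12.6 to 22.6) and Spag7 (5.03 to 7.53). These genes were as high in other cell classes: after the fibroblast-like ratio was subtracted, Mpst stood at 0.17, Spag7 at -0.17, Pigt at -0.02 and Dtx3 at -0.03.

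Part of the difference was seen in 4 classes at once. Over 4881 genes measured in Müller-, fibroblast-, astrocyte- and pericyte-like cells, 27 passed 1.5-fold upward in each class, among them Spag7, Pigt, Mpst, Dtx3, Cdkn2a, Eno1 and Jund. In each class 19 passed downward, of which 18 were ribosomal protein, pseudogene (-ps) or unnamed (Gm) symbols and the other was Wdr89. Of the 18, only Rpl10, Rpl6l and Rps27rt were ribosomal protein symbols without -ps. The share of all genes past 1.5-fold was 5.43% higher and 2.94% lower in astrocyte-like and 3.78% and 1.73% in pericyte-like cells. The 27 had a median UTR GC of 54.4%, against 43.0% for all of these genes. Spearman's rho of the log2 ratio with UTR GC across genes was 0.378 in Müller-like and 0.446 in fibroblast-like cells, and genes are not independent replicates. Müller-like and fibroblast-like log2 ratios had a Pearson r of 0.638 over 5254 genes, with both ratios taken from the same 2 libraries. Subtracting the fibroblast-like ratio, an alternative chosen after seeing the data, left 14 genes higher and 7 lower at 2-fold. For genes that fibroblast-like cells barely express, such as Gfap, Fbxo2 and Olfm2 (under 20 CPM there), the ratio subtracted is near 0 by construction. Glul, with 28.9 against 23.6 CPM in fibroblast-like cells, stood at 1.06 then, and Eno1, with 120.3 against 76.4 CPM, at 0.53.

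**Figure D4:**
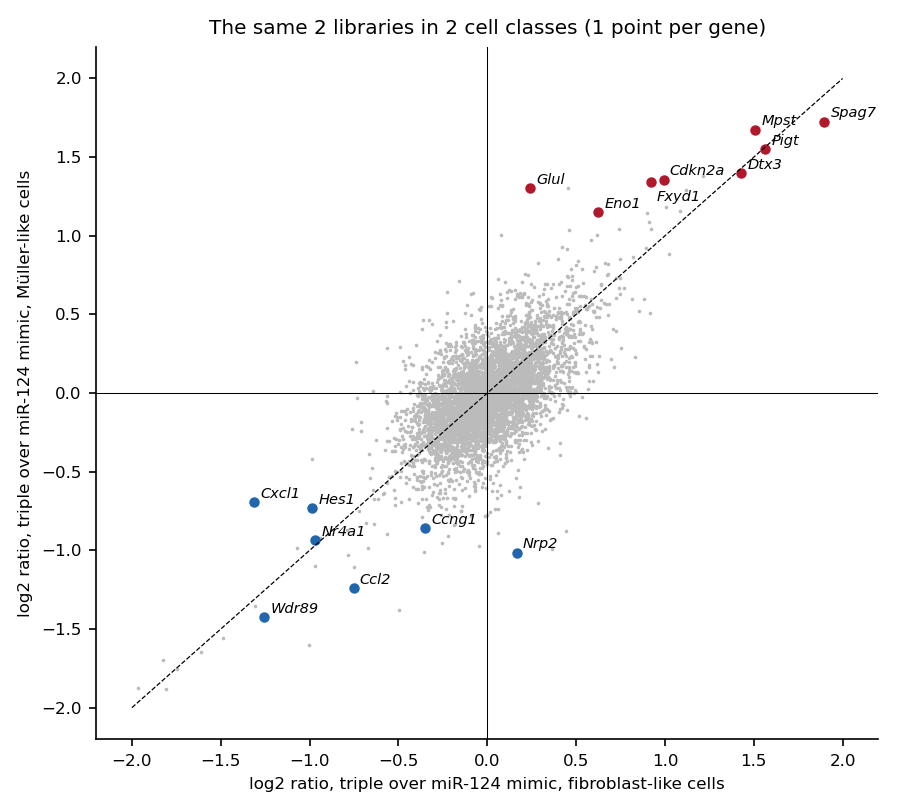
Log2 ratio, triple-labelled over miR-124-labelled, of each gene in Müller-like cells (vertical axis) and in fibroblast- or mesenchymal-like cells (horizontal axis), 5254 genes past the level filter in both. Pearson r was 0.638; Spag7, Pigt and Mpst lie near the diagonal, while Glul is at 1.30 in Müller-like and 0.24 in fibroblast-like cells.

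Most glycolytic genes lay above 0. Of 22 glycolysis and hypoxia genes, 15 passed the filter, 14 lay above 0, 3 passed 1.5-fold upward and 0 downward, and the median was 0.47 against 0.00 for all genes. Eno1, the enolase of glycolysis, had 1924 CPM (1895 to 1953) against 865 CPM (834 to 896), with 283 to 563 in the other 4 libraries and a log2 ratio of 1.15. Hk1, the hexokinase that opens the pathway, had 95.8 against 59.6 CPM (0.64). Pfkp, Tpi1 and Pkm, named after their values were seen, had log2 ratios of 0.59, 0.54 and 0.52, while Ldha, which makes lactate, had -0.09. Near-identical processed copies of Eno1, Gapdh and Pgam1 exist, so their levels are uncertain. The group's median was 0.42 in the Rlbp1-led, 0.43 in the Lcn2-led and 0.30 in fibroblast-like cells, and 0.30 after the GC trend was removed.

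Of the 3 metallothioneins, which bind zinc and copper and respond to stress, 1 passed 1.5-fold upward and 0 downward, with a median of 0.55 over the class, 0.73 in the Rlbp1-led and 0.27 in the Lcn2-led cluster. Mt3, the neural member, had 1013 against 476 CPM (1.08), Mt1 10950 against 7478 (0.55) and Mt2 5625 against 4475 (0.33). The other 4 libraries had 290, 652, 778 and 939 CPM of Mt3, the last in the control, so the triple-labelled value was the highest of the 6 and the miR-124-labelled one within the range of the rest.

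Notch effectors and a proneural factor were lower. Hes5, a Notch target that holds progenitors back from differentiating, had 10.3 CPM (8.28 to 12.7) in the triple-labelled library against 29.1 CPM (23.7 to 35.3) in the miR-124-labelled library, a log2 ratio of -1.16 and a ratio of 0.264 to 0.474. The other 4 libraries had 0.719 to 5.37 CPM. Hes5, like each gene below with under 20 CPM in the triple-labelled library, passed the level filter through the miR-124-labelled library alone and had to be lower. Hes1, a second Notch effector, had 40.7 against 70.9 CPM (-0.73), 40.3 against 63.5 within the Rlbp1-led cluster and 40.0 against 91.8 within the Lcn2-led one. It was also lower in fibroblast-like cells, at 18.7 against 41.9 CPM, and subtracting that ratio turned its value to 0.26.

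Neurog2, a proneural transcription factor, had 23.6 CPM (20.45 to 27.003) against 42.9 CPM (36.4 to 50.3), a log2 ratio of -0.75, and 29.7 against 64.9 CPM within the Rlbp1-led cluster (-1.01). The sign turned to 0.89 at the stricter cell filter, which left 372 and 99 Müller-like cells. Hes6, which antagonises Hes1 and promotes neuronal differentiation, had 209 against 135 CPM (0.61), and Dll1, a Notch ligand, 34.3 against 26.6 CPM (0.32). Within the Rlbp1-led cluster Hes6 was 0.32 higher, and within the Lcn2-led one 0.14 (ratio 0.764 to 1.65, which includes 1). In fibroblast-like cells Hes6 was 0.56 higher. Dll1 had 0.15 (ratio 0.855 to 1.51) and 0.37 (0.851 to 2.19) within the 2 clusters, and both intervals include 1.

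Shares of thinned cells followed the sums. Hes5 was seen in 1.74% (1.23% to 2.39%) of Müller-like cells of the triple-labelled library, against 4.58% (3.41% to 6.01%) of the miR-124-labelled library, and Neurog2 in 4.71% against 7.39%. Hes6 was seen in 27.8% against 19.7%. Of microglia-like cells, 0 of 97 and 0 of 100 had a Hes5 UMI, which allows shares of up to 3.73% and 3.62%, and about 5% had Hes6 (5.15% against 5.0%). The Hes5 shares lie near those limits. Of 15 progenitor genes 7 passed the filter, 1 higher and 2 lower at 1.5-fold, with a median of 0.21, and of 18 Notch genes 8 passed, 1 higher and 2 lower, with a median of 0.15. Hes5, Hes6 and Dll1 are on both lists.

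Of 14 neuronal genes 5 passed the filter, 1 past 1.5-fold upward and 0 downward, with a median of 0.04. Tubb3, a neuronal tubulin, had 25.5 against 13.6 CPM (0.72), Mapt, Map2 and Syt1 had log2 ratios of 0.37, 0.04 and 0.02, and Stmn2, a growth cone gene that glia in these cultures also carried, 284 against 417 CPM (-0.55), where the control had 789. Within the Rlbp1-led cluster Stmn2 was 0.45 higher. Scg2, a granin of secretory vesicles, had 15.6 against 43.5 CPM (-1.24, ratio 0.282 to 0.453) and the other 4 libraries 2.87 to 7.44. Rest, the repressor of neuronal genes, had 98.1 against 85.0 CPM (0.20), and Ptbp1, a splicing repressor that miR-124 targets in neurons, 51.7 against 34.5 CPM (0.52), which turned to -0.33 once the fibroblast-like ratio was subtracted. Proliferation could not be read: 1 of 21 cell cycle genes passed the filter, and Mki67 had 1.37 against 1.41 CPM.

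Of 18 p53 target genes, 15 passed the filter, 13 lay below 0, 2 passed 1.5-fold downward and 0 upward, and the median was -0.16 over the class and -0.32 in the Rlbp1-led cluster. Ccng1, a p53-induced cyclin, had 183 CPM (174 to 193) against 337 CPM (318 to 357), with 390.5 to 541 in the other 4 libraries, and a log2 ratio of -0.86. Eda2r, a p53-induced death receptor, had 22.5 against 42.1 CPM (-0.77). In fibroblast-like cells the list's median was -0.04. Both libraries were below the other 4 for Ccng1, and the triple-labelled one was the lower.

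Some stress and inflammatory genes were lower. Atf3, a stress-induced transcription factor, had 10.2 CPM (8.17 to 12.5) against 33.3 CPM (27.6 to 39.9), with 5.93 to 9.30 in the other 4 libraries, a log2 ratio of -1.34. The miR-124-labelled library was thus the high one. Csrnp1 (70 against 82 UMIs, 8.005 against 23.2 CPM) and Nr4a1 (14.2 against 31.6 CPM), further immediate early genes, were lower too, but Jund was higher at 119 against 62.1 CPM, and Fos had 1474 against 1811 CPM (-0.30). Subtracting the fibroblast-like ratio turned the signs of Nr4a1 (0.04), Jund (-0.14) and Fos (0.20). The 16 measured immediate early genes had a median of 0.02, with 1 higher and 3 lower. Ccl2, a monocyte chemoattractant, had 10.9 against 32.5 CPM (-1.24). Within the Rlbp1-led cluster it had -0.49 (9 against 8 UMIs, ratio 0.118 to 1.03), and within the Lcn2-led one -0.38 (ratio 0.541 to 1.04). Both of these intervals include 1. Cxcl1, which attracts neutrophils, had 18.9 against 33.6 CPM (-0.69), with -0.14 and -0.42 within those clusters. Its class value turned to 0.62 after the fibroblast-like ratio was subtracted. All 6 of the 15 chemokine and cytokine genes that passed the filter lay below 0, 2 of them past 1.5-fold, with a median of -0.41, and in fibroblast-like cells the median was -0.75. Spp1, osteopontin, had 16.8 against 42.4 CPM (-1.12) and is a leading gene of microglia-like cells. Within the Rlbp1-led and Lcn2-led clusters Spp1 had -0.49 (ratio 0.321 to 1.03) and -0.79 (0.171 to 0.990).

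Lcn2, Npvf and Grem1 differed in sign between the clusters. Lcn2 had 397 against 416 CPM over the class (-0.06), but 1569 against 998 CPM within the cluster it leads (0.65) and 102 against 129 CPM in the Rlbp1-led cluster (-0.33). Npvf, which encodes RFamide neuropeptides, had 160 against 270 CPM over the class (-0.73), 530 against 274 CPM in the Lcn2-led cluster (0.94) and 11.7 against 61.5 CPM in the Rlbp1-led one (-1.99). Grem1 had 45.6 against 78.2 CPM over the class (-0.72), 105 against 63.4 CPM in the Lcn2-led cluster (0.68) and 7.05 against 13.2 CPM in the Rlbp1-led one (-0.59). All 3 were thus lower in the Rlbp1-led and higher in the Lcn2-led cluster, and the part of the mixture of clusters in the class values was not tested.

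Of 24 contractile and adhesion genes, 21 passed the filter, 7 passed 1.5-fold downward and 0 upward, and the median was -0.13 over the class, 0.08 in the Rlbp1-led and -0.15 in the Lcn2-led cluster. Tagln2, an actin-binding protein, had 21.6 against 47.2 CPM (-0.97), and Tagln, a smooth muscle relative that is also a pericyte marker, 490 against 878 CPM (-0.83), -0.64 and -0.43 within the 2 clusters. Itgb1, the integrin beta 1 chain and a known target of miR-124, had 138 against 221 CPM (-0.66), where the control had 555, and -0.44 and -0.17 within the clusters. The IGF binding proteins Igfbp5 (39.5 against 76.5 CPM) and Igfbp7 (32.6 against 54.8 CPM) were lower as well, with a median of -0.67 over 3 genes. That median was 0.02 over all kept cells.

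**Figure D5:**
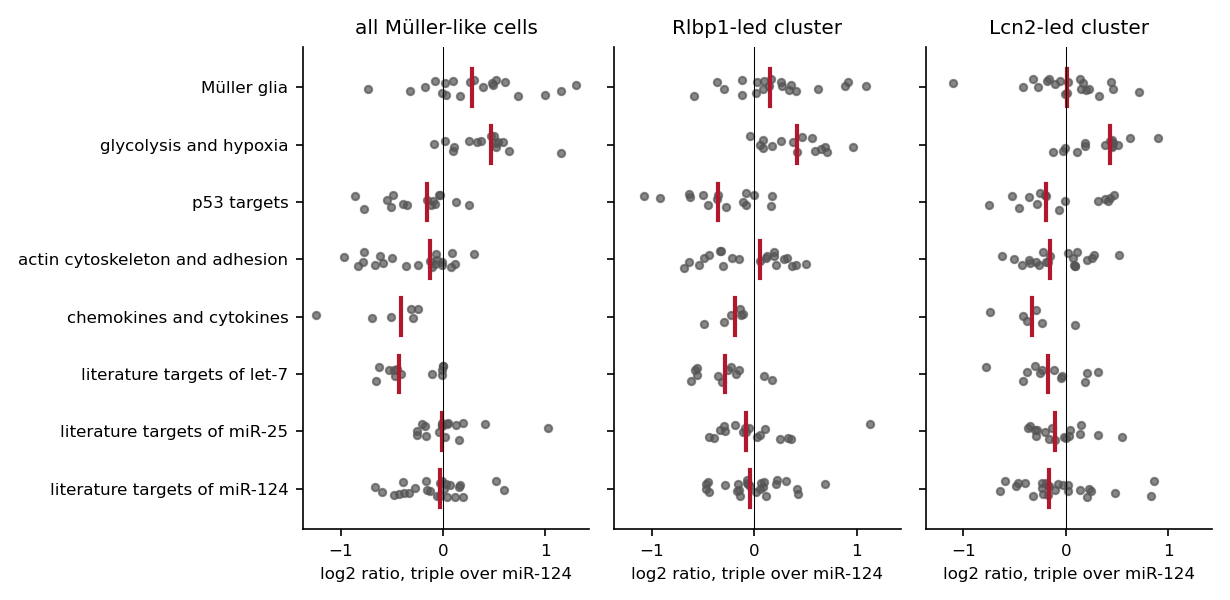
Log2 ratio, triple-labelled over miR-124-labelled, of the members of 8 gene lists, 1 dot a gene, in all Müller-like cells, in the Rlbp1-led cluster and in the Lcn2-led cluster. Red bars are medians over members past the level filter in all Müller-like cells. The cluster medians quoted here were taken over members past the filter within that cluster, so a bar can differ from them. For the actin and adhesion list these were 20 genes in the Rlbp1-led cluster, against 21 over the class. Glycolysis genes stand above 0 in each (0.47, 0.42 and 0.43), while the actin and adhesion median is -0.13 over the class and 0.08 in the Rlbp1-led cluster.

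Literature targets of let-7, known from other tissues, leaned low as the site genes did. Of 30, 12 passed the filter, 11 lay below 0, 2 passed 1.5-fold downward and 0 upward, and the median was -0.43 over the class, -0.32 in the Rlbp1-led and -0.18 in the Lcn2-led cluster, and -0.03 in fibroblast-like cells. Thbs1, a secreted matrix glycoprotein, had 33.6 against 55.6 CPM (-0.65) and Ccnd1, the G1 cyclin, 349 against 541 CPM (-0.62), with 706 to 1513 in the other 4 libraries. Within the Rlbp1-led and Lcn2-led clusters Thbs1 had -0.26 and -0.78, and Ccnd1 had -0.23 and -0.30. Igf1r and Map4k4 were within 0.01 of 0. Hmga2, a chromatin protein of progenitors whose let-7 site is printed above, had 6.86 against 14.7 CPM, below the filter in both. Lin28b, the RNA-binding protein that blocks let-7 maturation, had 0 UMIs in both, where 3 UMIs correspond to 0.343 and 0.847 CPM.

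Literature targets of miR-25 did not lean: of 25, 17 passed the filter, with 1 higher, 0 lower and a median of -0.01. Dkk3, a Wnt modulator with sites of both miRNAs, had 1994 against 2266 CPM (-0.18), while the libraries labelled double combination and miR-25 mimic had 966 and 850 CPM and the control 1775. Bcl2l11, the pro-apoptotic protein Bim, had 100 against 74.3 CPM (0.41). Ddit4, an mTORC1 inhibitor, was the highest of the list, at 58.4 against 26.0 CPM (1.03). For miR-124, whose mimic both labels name, 25 of 32 targets passed, 1 higher and 2 lower, with a median of -0.03.

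The double combination over the control makes the same change of labels without miR-124 mimic, in 2 libraries that enter nowhere in the triple over miR-124 ratio. There 47 of 6407 genes (0.734%) passed 2-fold upward and 56 (0.874%) downward, and 3.61% and 4.90% passed 1.5-fold. Of 6043 genes measured in both, 20 passed 2-fold upward and 17 downward in triple over miR-124, and 30 and 55 in double over control. Among them 0 passed 2-fold upward in both and 0 downward in both, while 3 were higher then lower and 3 lower then higher. With so few genes past 2-fold in each comparison, the 0 shared genes say little. At 1.5-fold, 1 gene was higher in both and 8 were lower in both, 36 were higher then lower and 42 lower then higher. Pearson's r across these genes was -0.342, and 0.091 over all kept cells. Ccnd1 and Itgb1 were among the 5 lowest in both. The Rlbp1-led cluster, which makes up most of the triple-labelled class, held 3 Müller-like cells of the double combination and 10 of the control, so the 2 ratios were not taken over the same cells.

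Other cell classes had their own counts. Fibroblast-like cells had 14 of 6042 genes (0.232%) past 2-fold upward and 16 (0.265%) downward, led by Spag7 (30.05 against 4.42 CPM) and Pigt, and by Cxcl1 (27.8 against 76.4 CPM), Ccl7 and Hes1 at the low end. Astrocyte-like cells had 63 (0.945%) higher and 26 (0.390%) lower of 6664. Npvf had 48.0 against 2.73 CPM there and Penk, the enkephalin precursor, 33.3 against 3.64 CPM. Pericyte-like cells had 41 (0.651%) and 20 (0.317%) of 6300, with Lcn2 lower at 14.6 against 73.4 CPM. Microglia-like cells, 100 and 106 in number, had 173 (3.04%) and 104 (1.83%) of 5693, with Csf2ra at 48.4 against 2.13 CPM and Ccl7, a monocyte chemokine, at 84.7 against 264 CPM. Gfap had 159 against 25.5 CPM in microglia-like cells, a level that moved with that of Müller-like cells in the same libraries, and whether it is free RNA was not tested.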

How the data were processed

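Raw UMI counts per gene and cell were deposited by the authors for 6 libraries. Per the submitters' processing notes the tools were Cell Ranger 2 and Seurat 2, with mm10. How the authors chose the deposited barcodes is not stated in the labels. The matrix of the double combination was cut short, and 5094879 of its 8637523 entries (3014 of 5141 barcodes) were read; it enters only as context.

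Cells of 500 or more genes whose mitochondrial share was 10% or less were clustered over all 6 libraries in scanpy 1.11.5 (2000 variable genes, 30 principal components, 15 neighbours, Leiden resolution 0.6, no integration) and named by the list with the highest fraction of markers raised 2-fold or more over the median cluster, with 3 raised at the least. A cluster stayed unnamed where a second list reached over 0.85 of that fraction or where cell cycle genes led it. Scrublet marked 0.147% of the triple-labelled cells, so it did not work there, and 3.06% of the miR-124-labelled cells; no doublets were removed, and dropping the top 4% of each library by score was an alternative. UMI sums were scaled to CPM, with log2 ratios of CPM + 5 for genes that reached 20 CPM in either library. Exact 95% intervals (scipy 1.17.1) are Poisson for sums, conditional for ratios and Clopper-Pearson for shares; a share of 0 is given with the exact upper bound, and 3 UMIs is the floor of a sum. Sites were searched in the longest annotated 3′ UTR per gene (GENCODE vM21, GRCm38).

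Genes were named by rules of size: the 15 highest and 15 lowest with the same sign in all kept cells (leaving out mitochondrial, ribosomal protein, haemoglobin, sex-linked and unnamed symbols), the 2 highest and 2 lowest of each list, 27 genes whatever their values, the 4 highest and lowest of each other class, and the 5 highest and lowest in both comparisons. Further list members (Clu, Abca8a, Pfkp, Tpi1, Pkm, Csrnp1 and Bcl2l11) were chosen after their values were seen, and some genes covered by these rules are not reported here. The members, lists and rules were chosen with earlier results of these data known. The ratio script was tested on simulated data first.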

Additional observations from a re-analysis of the deposited data

Results flagged for a closer look

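In all, 6 genes in Müller-like cells had a log2 ratio past 1 in one direction for the triple-labelled over the miR-124-labelled library and past 1 in the other direction for the double combination over the control, a pair of comparisons with no library in common and, by label, the same 2 RNAs added. The difference between the comparisons was not tested, since each library stands alone. Spp1 had -1.12 and 1.45, with 16.8, 42.4, 97.4 and 32.4 CPM in the triple-labelled, miR-124-labelled, double combination and control libraries. Ccl2 had -1.24 and 1.74, with 10.9, 32.5, 109 and 28.9 CPM in the same order. The triple-labelled over miR-124-labelled values of Spp1 and Ccl2 were smaller within clusters. They were -0.49 for each in the Rlbp1-led cluster, and -0.79 and -0.38 in the Lcn2-led one. AI593442 had -1.56 and 2.52, with 3.66, 20.6, 137 and 19.7 CPM, and it leads the Grem1-led cluster along with Grem1 and Npvf; that cluster held 45, 80, 881 and 235 cells in that order. Fxyd1 had 1.34 and -1.40, with 342, 132, 48.2 and 136 CPM. Mt3 had 1.08 and -1.68, with 1013, 476, 290 and 939 CPM, and Sept4, a septin of glia and neurons, had 1.13 and -1.23, with 191, 84.7, 32.3 and 82.5 CPM.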

How the results depend on the processing

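Counts of 38 higher and 23 lower genes became 21 and 10 at a minimum of 50 CPM, 397 and 213 at the stricter cell filter, where the miR-124-labelled library kept 99 Müller-like cells and 327533 UMIs, and 14 and 7 after the fibroblast-like ratio was subtracted; with no minimum level 37 were lower. The Müller-like share of 53.3% in the triple-labelled library was 56.4% at Leiden resolution 0.3, 56.0% with the 2 libraries clustered alone, 54.8% without the top 4% of doublet scores and 18.3% at the stricter filter; that of 34.0% in the miR-124-labelled library was 36.6% at resolution 0.3 and 4.93% at the stricter filter. The neuron- or progenitor-like share of 0.759% was 1.22% at resolution 1.0 and 1.30% with the 2 libraries alone, and that of 4.45% was 1.54% at the stricter filter. The let-7 site difference of -0.062 was -0.023 over all kept cells and at the stricter filter and -0.11 in the Rlbp1-led cluster. The miR-25 difference of -0.014 was 0.036 at the stricter filter and 0.017 with trends removed, and the miR-124 difference of -0.012 was 0.007 over all kept cells and -0.035 for 8-base sites. At 1.5-fold, 1 and 8 genes in place of 0 and 0 were higher and lower in both comparisons. Signs turned for Spag7 (-0.17), Pigt (-0.02) and Dtx3 (-0.03) after the fibroblast-like ratio was subtracted, as for Cxcl1 (0.62), Hes1 (0.26), Ptbp1 (-0.33), Jund (-0.14), Fos (0.20) and Nr4a1 (0.04), all under 2-fold before; at the stricter filter for Neurog2 (0.89), Npvf (0.31) and Ptbp1 (-0.05); over all kept cells for Igfbp5 (0.02) and the IGF binding protein median (0.022); and in the Rlbp1-led cluster for Stmn2 (0.45). Of 32 named genes at least 2-fold apart, 29 kept their sign and 10 stayed past 2-fold under every alternative run; apart from the alternative's own construction, the cause of these moves was not tested. The alternatives moved the median of all genes by at most 0.03. No paired analysis was possible because each treatment has 1 library. No library could be left out for the same reason. Depth limits genes near 0.343 and 0.847 CPM.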

Other observations

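Further gene groups of Müller-like cells are given beside the median of all genes (0.00). Of 18 lysosome genes 16 passed the level filter, with 0 higher and 0 lower at 1.5-fold and a median log2 ratio of 0.03, triple-labelled over miR-124-labelled. Cholesterol synthesis and transport genes (16 of 21 measured) had 1 higher, 0 lower and a median of 0.03, but 0.34 within the Lcn2-led cluster. Interferon and antigen presentation genes (11 of 20) had 0 and 0 with a median of 0.16, and unfolded protein and integrated stress genes (16 of 19) had 0 higher, 1 lower, which was Atf3, 13 below 0 and a median of -0.17. Oxidative stress genes (15 of 15) had 0 higher and 2 lower with a median of -0.05. The 2 were Slc7a11, a cystine importer (-0.82), and Ftl1, the ferritin light chain, at 9832 against 15138 CPM (-0.62), a gene with near-identical copies, while Fth1, the heavy chain, had 14021 against 14545 CPM.

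Some of the lowest genes belong to none of the groups above. Wdr89 had 20.8 CPM in the triple-labelled library against 64.4 CPM in the miR-124-labelled library and 47.8 to 56.2 CPM in the other 4, so the triple-labelled library was apart. Crabp1, a cytosolic retinoic acid carrier, had 7.66 against 22.0 CPM (-1.09), and Rdh10, which makes retinal for retinoic acid synthesis, 355 against 503 CPM (-0.50). Mybl1, a transcription factor of dividing cells, had 29.2 against 63.3 CPM over the class and 32.7 against 87.9 CPM within the Rlbp1-led cluster, with 28.2 CPM in the control. Spcs3, a subunit of the signal peptidase, had 22.9 against 51.1 CPM, and Angptl2, a secreted angiopoietin-like protein, 9.15 against 23.2 CPM.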
